A study of Mus musculus with 62 samples.

Results

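The ETS factors are transcription factors that share a DNA-binding domain and read sites built around GGAA. Ets2, Erg and Gabpa lie in the part of mouse chromosome 16 that Ts65Dn mice carry in an additional copy, and they are described here with 5 relatives or partners that stay in 2 copies (Ets1, Fli1, Gabpb1, Gabpb2 and Elk1). These 8 genes were chosen by a rule on symbols that used no measured value, although earlier results of these data were known. All 8 were found among the 27179 genes of both count tables and passed the filter on low counts in every comparison.

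RNA was sequenced from the forebrain of embryos at E17.5 (8 euploid, 7 Ts65Dn) and from the hippocampus of adult, 6-wk mice, with 8 euploid, 7 Ts65Dn and 8 Ts65Dn;Brwd1+/- males and 8 females of each of these genotypes. All animals shared the mixed DBA/2J x B6EiC3Sn/J background. Ts65Dn animals carry the distal part of chromosome 16 and the proximal part of chromosome 17 on a small additional chromosome, and Ts65Dn;Brwd1+/- animals in addition carry a mutant allele of Brwd1, a triplicated chromatin reader, so that the number of intact Brwd1 copies is back at the euploid number. The comparisons ask how the trisomy changes expression in embryos and adults, and what the return of the Brwd1 copy number changes in adults. Every cell of the tissue carries these genotypes, and the tissues are mixtures, in which fewer cells of a type and less RNA per cell cannot be told apart.

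Library totals ran from 14.9 to 137.1 M reads over 62 libraries. Levels are read counts scaled to library size (CPM, with TMM factors from the embryonic or the adult table, which were scaled separately), and "called" means an adjusted p under 0.1 in edgeR's quasi-likelihood test over all tested genes, the cutoff of the study. Several adult libraries stood apart and are named beside the results that rest on them. In 4 of them (male Ts65Dn replicate 1, male Ts65Dn;Brwd1+/- replicates 2 and 8, female Ts65Dn;Brwd1+/- replicate 3) the dosage of the segments (the median, over triplicated genes, of the log2 ratio to euploid animals) lay between 0.00 and 0.04, whereas its mean was 0.58 ± 0.01 (SD, n = 7) in E17.5 Ts65Dn and 0.57 ± 0.03 (SD, n = 8) in female Ts65Dn. In 2 others (male Ts65Dn replicate 7, female euploid replicate 7) Xist and Ddx3y went against the labelled sex. In the female euploid one Dcx, a gene of immature neurons, was also at 121.7 CPM, where each other adult group had at most 24.7. Another 2 (female euploid replicate 2, female Ts65Dn;Brwd1+/- replicate 7) had Prox1, a factor of dentate gyrus granule cells, at 18.2 and 19.9 CPM, where each other adult library had at least 46.5. In both, the sum over 8 astrocyte genes was also the lowest of the group, at 2849 and 2632 CPM. The group medians of this sum were 4380 and 3916 CPM.

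ETS factors act in development, in blood vessels and in the response to growth signals. Erg, Fli1, Ets1 and Ets2 are known for roles in endothelial cells. Gabpa binds DNA as the subunit of the GA-binding protein (GABP), whose beta subunits, encoded by Gabpb1 and Gabpb2, activate transcription, and GABP is known as a regulator of nuclear genes for mitochondrial proteins. Elk1 is a partner of serum response factor at immediate early genes and is activated by ERK kinases.

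On mm10, Ets2 (gene 23872) spans chr16:95702407-95721049 and Erg (13876) lies beside it at chr16:95359169-95586600. Gabpa (14390) is near the proximal end of the triplicated part, at chr16:84834891-84863783. Ets1 (23871, chr9:32636241-32757820) and Fli1 (14247, chr9:32422204-32543432) are neighbours on chromosome 9. Gabpb1 (14391) is at chr2:126628907-126684435, Gabpb2 (213054) at chr3:95181766-95218110 and Elk1 (13712) at chrX:20933395-20950608. Gabpa stands head to head with Atp5j (11957), a subunit of the mitochondrial ATP synthase, and their annotated spans overlap. The library kit does not mark strand, so reads from the overlap of Gabpa with Atp5j, or of Gabpb2 with its overlapping gene Gm16740, cannot be assigned to a strand. The same holds where Gabpb1 overlaps Gm18720 and A630026N12Rik, and where Fli1 overlaps Gm22060.

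Both genes start from a short shared interval, and the part of it nearest Gabpa is shown because this pair of triplicated genes shares it. These are 100 of the 147 bases between an Atp5j start on the - strand and a Gabpa start on the + strand. They cover chr16:84835024-84835123 on the + strand (RefSeq, GRCm38.p6) and end on the base before the Gabpa start. Capitals mark the single match to CTTCCGG, the reverse complement of CCGGAAG, which holds the GGAA core of ETS sites.

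Gabpa side of the Atp5j to Gabpa interval: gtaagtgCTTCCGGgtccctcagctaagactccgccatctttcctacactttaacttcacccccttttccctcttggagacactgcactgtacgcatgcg

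CCGGAAG, searched on both strands, was found in 8.86% of all 32851 promoter windows of 300 bases, and in 1 of 9 windows of 6 members (Ets2, Erg, Gabpa, Gabpb1, Gabpb2 and Elk1). The match is a description of the letters in that window and was not measured as a bound site.

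Per length, Elk1 was the most abundant member in euploid E17.5 forebrain, at 13.7 ± 1.49 CPM per kb of exon (SD, n = 8). Gabpa followed at 8.85 ± 1.14, then Ets2 at 5.26 ± 0.607 and Gabpb1 at 5.21 ± 0.398, which differed by less than their spread. Ets1 stood at 3.51 ± 0.216, Gabpb2 at 1.85 ± 0.297, Fli1 at 1.40 ± 0.225 and Erg at 1.23 ± 0.247, where Fli1 and Erg again differed by less than the spread. In euploid adult male hippocampus Elk1 (19.96 ± 2.63, n = 8) and Ets2 (14.1 ± 0.875) were highest and Fli1 was lowest (0.941 ± 0.161 CPM per kb).

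Ets2 was higher in Ts65Dn in all 3 settings tested, embryos, adult males and adult females. In E17.5 forebrain Ets2 ran from 24.7 to 36.0 CPM in euploid embryos (median 30.8) and from 44.1 to 48.5 in Ts65Dn embryos (median 46.6). The groups did not overlap, and the log2 fold change was 0.61 (SE 0.07, adjusted p = 4.9e-05). In male hippocampus Ets2 had a lowest, median and highest value of 76.1, 80.2 and 90.3 CPM in euploid animals and of 78.7, 116 and 128 in Ts65Dn animals. The single Ts65Dn male inside the euploid range was replicate 1, whose triplicated genes lacked the trisomic dosage. The log2 fold change was 0.44 (SE 0.10, adjusted p = 0.0496), and without the 8 libraries named above it was 0.54. This call was lost without any of 6 single libraries (Ts65Dn replicates 2, 3, 5 and 6, euploid replicates 4 and 5), with adjusted p between 0.1003 and 0.126 and the log2 fold change between 0.40 and 0.43. In females Ets2 ran from 64.9 to 93.9 CPM in euploid animals (median 84.3) and from 110 to 127 in Ts65Dn animals (median 115), again without overlap. The log2 fold change in females was 0.48 (SE 0.08, adjusted p = 0.00105).

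Gabpa, the DNA-binding subunit of GABP, was also called higher in all 3 settings. In embryos Gabpa ran from 43.1 to 63.5 CPM in euploid (median 50.3) and from 58.7 to 94.95 in Ts65Dn forebrain (median 66.3), with 5 of 7 Ts65Dn embryos above the highest euploid value. The log2 fold change was 0.48 (SE 0.10, adjusted p = 0.0258). Male hippocampus held 24.5 to 28.8 CPM in euploid animals (median 25.8) and 29.7 to 41.7 in Ts65Dn animals (median 37.7). All 7 Ts65Dn males were above the highest euploid male (log2 fold change 0.50, SE 0.09, adjusted p = 0.00970). These 7 include replicate 1, at 32.2 CPM, whose triplicated genes lacked the trisomic dosage. In females the ranges were 19.1 to 29.9 CPM (median 26.5) in euploid and 34.6 to 40.5 (median 37.9) in Ts65Dn animals, without overlap (0.53, SE 0.08, adjusted p = 0.000464). The neighbour Atp5j was called higher as well, with log2 fold changes of 0.55 in embryos, 0.54 in males and 0.57 in females.

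Erg, a factor known for keeping endothelial identity, was the least abundant triplicated member and was called higher in females only among the 3 settings. The difference between sexes was not called. Embryos had a lowest, median and highest Erg value of 3.15, 4.30 and 5.34 CPM in euploid and of 5.11, 5.62 and 6.56 in Ts65Dn forebrain. Every Ts65Dn embryo was above the euploid median, 4 of 7 were above the highest euploid embryo, and the log2 fold change of 0.40 (SE 0.13) did not pass (adjusted p = 0.197). DESeq2 called it, at 0.42 (adjusted p = 0.0575). The embryos' titles carry 1 of 2 numbers, whose meaning the labels do not give. Within the higher number (4 euploid, 3 Ts65Dn) the Erg log2 fold change was 0.14 (adjusted p = 0.863), and within the lower (4 and 4) it was 0.72 (adjusted p = 0.101). In males the values were 3.86, 4.23 and 5.24 CPM in euploid and 4.05, 5.36 and 6.14 in Ts65Dn animals (0.24, SE 0.10, adjusted p = 0.511). In females they were 3.11, 3.74 and 4.15 in euploid and 3.99, 4.88 and 5.41 in Ts65Dn animals, with 7 of 8 Ts65Dn females above the highest euploid female (0.40, SE 0.10, adjusted p = 0.0313).

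**Figure D1:**
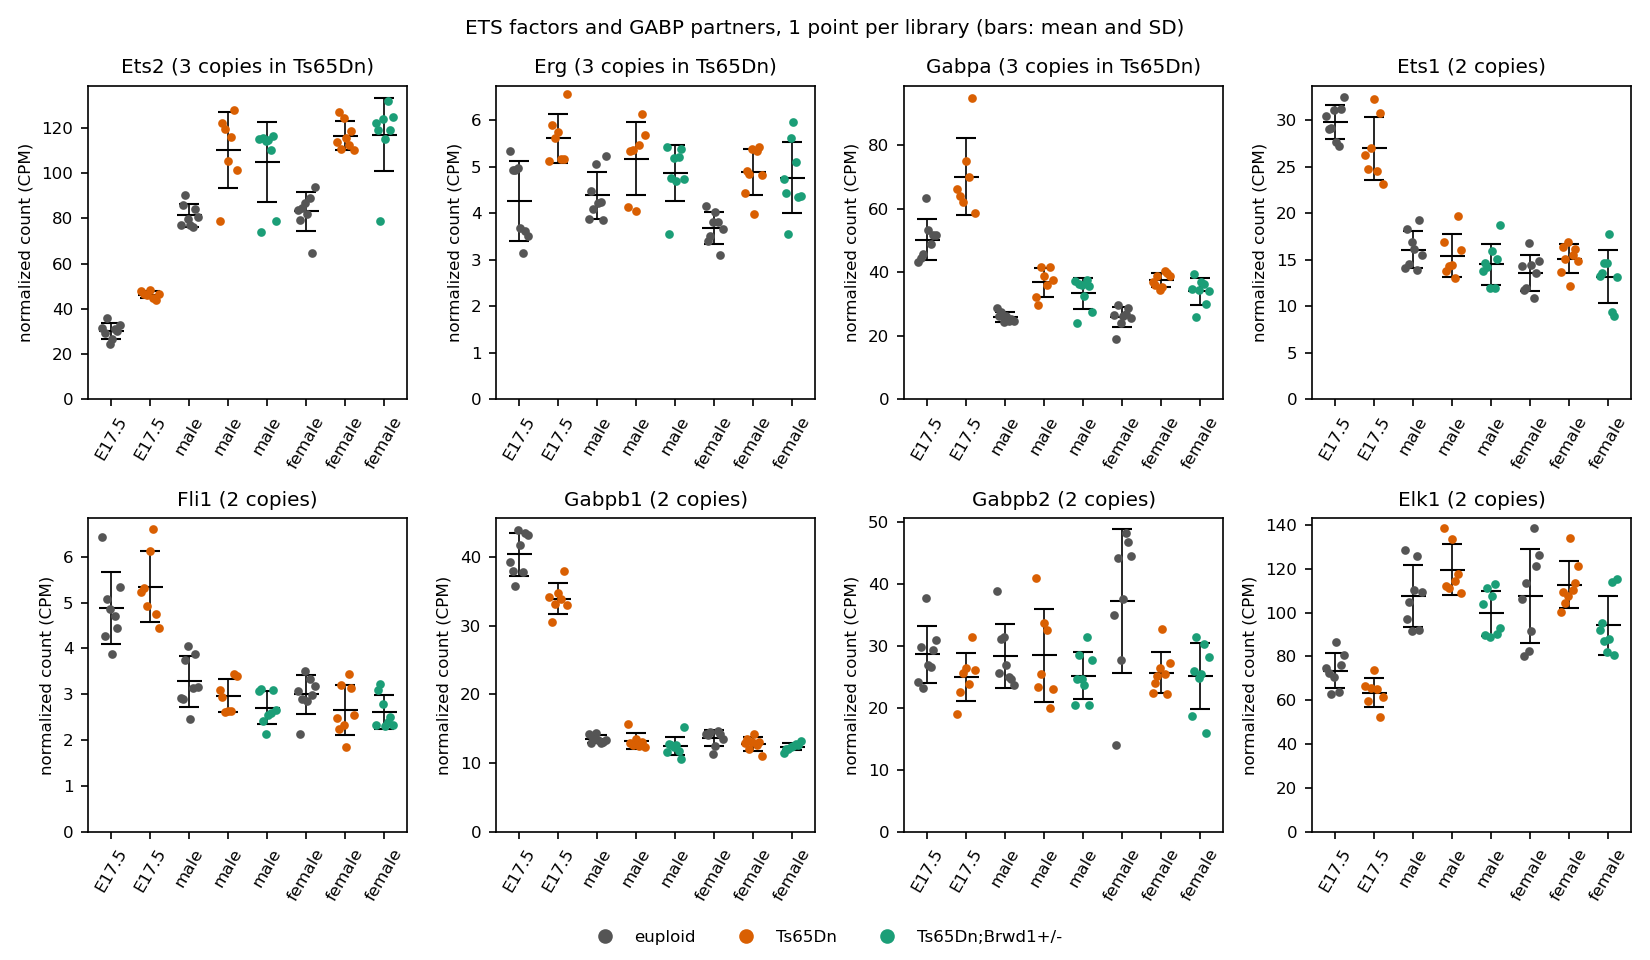
CPM of the 8 genes in each of the 62 libraries by group, each gene on an axis of its own, with the group means and SDs. Ets2 in E17.5 Ts65Dn (44.1 to 48.5 CPM) lay wholly above E17.5 euploid (24.7 to 36.0), and the low Ts65Dn and Ts65Dn;Brwd1+/- points of Ets2 are libraries without the trisomic dosage.

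Counts of members are read against all tested genes. In embryos 2 of 8 members were called higher (Ets2 and Gabpa) and 1 lower (Gabpb1), where 1.35% of 16395 genes were called, 1.1% higher and 0.244% lower. In males 2 of 8 were called higher and 0 lower, where 0.795% of 16851 genes were called, 0.671% higher and 0.125% lower. In females 3 of 8 were called higher and 0 lower, where 3.17% of 17146 genes were called, 1.94% higher and 1.22% lower. All calls in the higher direction were of triplicated members.

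The increase of the triplicated members was set beside that of the other triplicated genes in the same library, by taking the median log2 ratio of the segments away from each member's log2 CPM. A ratio of 3 copies to 2 corresponds to a log2 of 0.58. In 15 two-sided exact permutation tests over animals, 0 passed after Benjamini-Hochberg adjustment at 0.05. Gabpa in males and females and Ets2 in embryos differed from the segments by 0.05 or less on the log2 scale, Ets2 was at -0.06 in males and in females, and Gabpa at -0.10 in embryos. Erg was below the segments in male Ts65Dn by a log2 difference of -0.25 (exact p = 0.00917, adjusted p = 0.138), with 0 of 7 Ts65Dn males above the euploid median. The adjusted p of that Erg difference was 0.04995 without male Ts65Dn replicate 6. In females the Erg difference was -0.15 (exact p = 0.0514) with 0 of 8 above the euploid median, and in embryos it was -0.16 (exact p = 0.219). The embryonic value was -0.45 within the higher title number and 0.13 within the lower, so its direction was not the same in both.

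**Figure D2:**
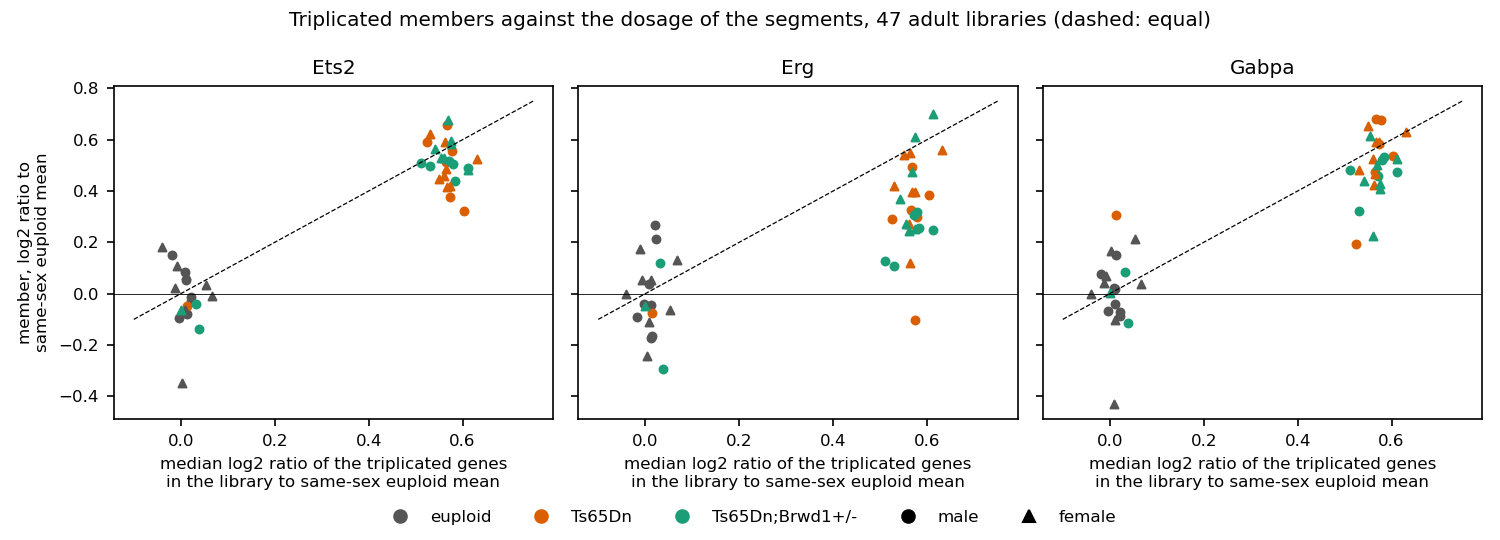
Log2 ratio of Ets2, Erg and Gabpa to the euploid mean (y axis) against the dosage of the segments (x axis, log2) in the 47 adult libraries, coloured by group, with the dashed line marking equal values. The 4 trisomic-labelled libraries without trisomic dosage lie between 0.00 and 0.04 on the x axis.

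All 3 triplicated members were called higher in female Ts65Dn;Brwd1+/- than in female euploid hippocampus. Female Ts65Dn;Brwd1+/- hippocampus held Ets2 at 79.02 to 132 CPM (median 121), with 7 of 8 above the highest euploid female, and the log2 fold change over euploid was 0.49 (SE 0.08, adjusted p = 0.00126). Gabpa ran from 25.8 to 39.5 CPM (median 34.7) and was 0.39 higher on the log2 scale (SE 0.08, adjusted p = 0.0183). Erg ran from 3.56 to 5.97 CPM (median 4.59), and its log2 fold change of 0.37 (SE 0.10, adjusted p = 0.0990) passed narrowly. The Erg call was lost without any of 13 single libraries (Ts65Dn;Brwd1+/- replicates 1, 2 and 4 to 8, euploid replicates 3 to 8), at 0.32 to 0.39 with adjusted p from 0.102 to 0.258. So 3 of 8 members were called higher and 0 lower, where 0.729% of all genes were called, 0.554% higher and 0.175% lower.

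In males 1 of 8 members was called higher in Ts65Dn;Brwd1+/- than in euploid hippocampus, where 0.576% of all genes were called, 0.439% higher and 0.136% lower. This was Gabpa, at 24.02 to 37.5 CPM (median 35.9) with 6 of 8 above the highest euploid male (log2 fold change 0.36, SE 0.08, adjusted p = 0.0599). The Gabpa call was lost without any of 11 single libraries (Ts65Dn;Brwd1+/- replicates 1 and 3 to 7, euploid replicates 2 and 4 to 7), at 0.33 to 0.36 with adjusted p from 0.102 to 0.139. Ets2 ran from 73.9 to 116 CPM (median 114), with its lowest values in the libraries lacking trisomic dosage, and its log2 fold change of 0.36 (SE 0.10) did not pass (adjusted p = 0.129). It passed without Ts65Dn;Brwd1+/- replicate 2 (0.43, adjusted p = 0.0158), without replicate 8 (0.41, adjusted p = 0.0354), and, without all 4 libraries of euploid-like dosage, at 0.49 (adjusted p = 6.39e-07). Erg was at 3.55 to 5.43 CPM (median 4.97; 0.15, adjusted p = 0.659).

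Between Ts65Dn;Brwd1+/- and Ts65Dn hippocampus, edgeR called 0 of 8 members in either sex, and also 0% of all genes. At an unadjusted p under 0.05, 1261 genes in males (7.48%) and 604 in females (3.52%) differed in this comparison. The female share was below the share that this threshold gives with no difference. The 95% intervals of the log2 difference ran from -0.28 to 0.14 for Ets2, from -0.30 to 0.13 for Erg and from -0.32 to 0.03 for Gabpa in males. In females they ran from -0.15 to 0.17 for Ets2, from -0.23 to 0.17 for Erg and from -0.31 to 0.03 for Gabpa. Gabpa differed by -0.14 in each sex (adjusted p = 0.716 in males and 0.9999 in females). Without the 4 libraries lacking the trisomic dosage, of which 2 male and 1 female are Ts65Dn;Brwd1+/- and 1 male is Ts65Dn, the Gabpa difference was -0.07 in males and -0.10 in females. The 2 comparisons with Ts65Dn;Brwd1+/- and the comparison of Ts65Dn with euploid share their animals and are therefore not independent of each other.

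**Figure D3:**
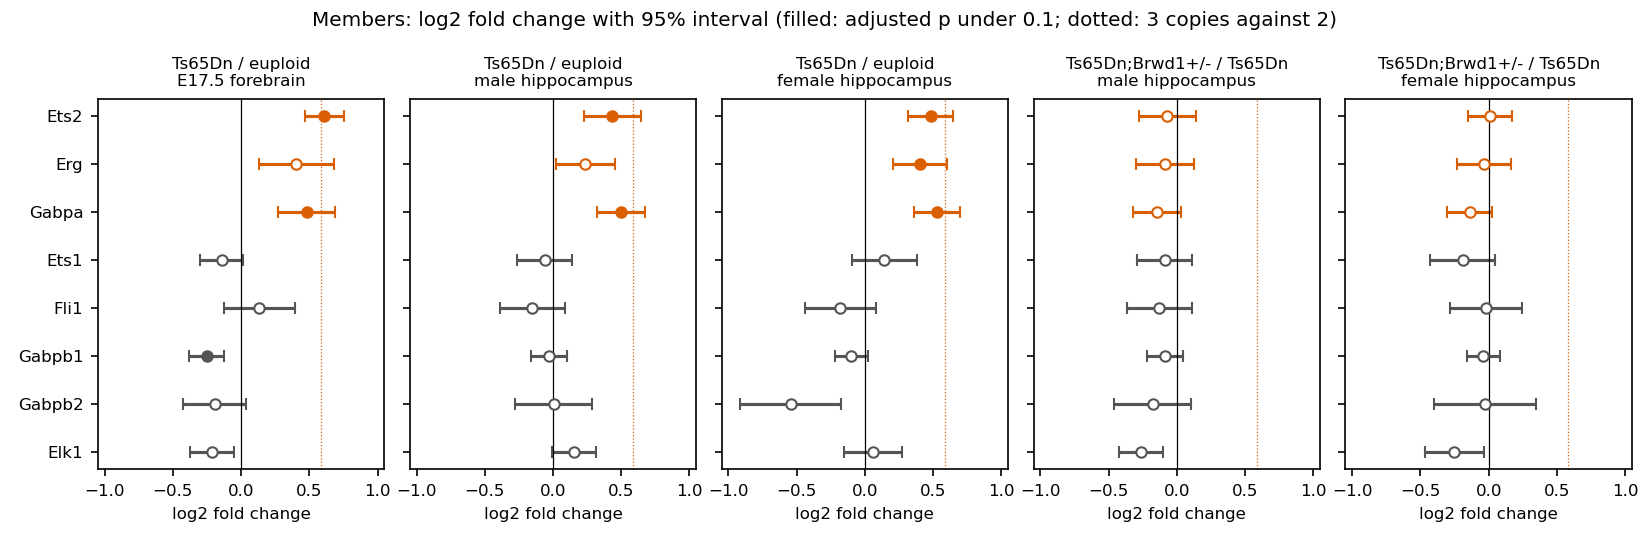
Log2 fold changes of the 8 genes with 95% intervals in the Ts65Dn vs. euploid and the Ts65Dn;Brwd1+/- vs. Ts65Dn comparisons, with called values marked. Ts65Dn;Brwd1+/- vs. euploid is not drawn. Ets2 and Gabpa lie to the right of 0 in the 3 Ts65Dn vs. euploid comparisons, and the 2-copy genes lie around or to the left of 0.

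Elk1, the 2-copy partner of serum response factor, had lower values in Ts65Dn;Brwd1+/- than in Ts65Dn hippocampus in both sexes without passing edgeR's test. In males Elk1 ran from 109 to 138.7 CPM in Ts65Dn (median 115) and from 89.04 to 112.9 in Ts65Dn;Brwd1+/- animals (median 98.4), of which 6 of 8 were below the lowest Ts65Dn male. The log2 difference was -0.26 (SE 0.08, unadjusted p = 0.00267, adjusted p = 0.625). In females it ran from 100.4 to 134.2 CPM in Ts65Dn (median 110) and from 80.7 to 115 in Ts65Dn;Brwd1+/- animals (median 89.8), again with 6 of 8 below the lowest Ts65Dn female. The female difference was -0.25 (SE 0.10, unadjusted p = 0.0246, adjusted p = 0.9999). With 3 RUVr factors, which take unwanted variation out of the fit, edgeR called Elk1 in males (-0.26, adjusted p = 0.00739) and in females (-0.26, adjusted p = 0.00406), in fits that called 3.47% and 2.48% of all genes. The study used RUVr with DESeq2 and does not name its number of factors, so these fits are not its own. Prox1 and Zbtb20 were lower as well without passing, with Prox1 at -0.43 in males (adjusted p = 0.626) and -0.24 in females, and Zbtb20 at -0.38 and -0.22. Their part in the Elk1 difference was not tested. Against euploid animals, Elk1 in Ts65Dn differed by 0.15 in males (adjusted p = 0.590), by 0.06 in females (adjusted p = 0.856) and by -0.21 in embryos (62.8 to 86.8 CPM in euploid, 52.4 to 73.6 in Ts65Dn, adjusted p = 0.275). In Ts65Dn;Brwd1+/- it differed from euploid by -0.11 in males (adjusted p = 0.675) and by -0.19 in females (adjusted p = 0.504). With 3 RUVr factors in edgeR the female value was called at -0.17 (adjusted p = 0.00260).

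Gabpb1, which encodes a GABP beta subunit, was the only member called lower in a genotype comparison in edgeR's main fits, in E17.5 forebrain. The main fits use all libraries and no RUVr factors, with the embryos or each sex fitted alone. It ran from 35.8 to 44.0 CPM in euploid embryos (median 40.5) and from 30.5 to 38.0 in Ts65Dn embryos (median 33.8). Of the 7 Ts65Dn embryos 6 were below the lowest euploid embryo, and the log2 fold change was -0.25 (SE 0.06, adjusted p = 0.0665). The call was lost with upper-quartile scaling (-0.23, adjusted p = 0.104) and without any of 10 single libraries (Ts65Dn replicates 2 to 5 and 7, euploid replicates 1, 4, 5, 7 and 8), where it lay between -0.25 and -0.22 with adjusted p from 0.116 to 0.206. In adults the group medians of Gabpb1 lay between 12.4 and 14.2 CPM, and no genotype comparison passed in the main fits. In female Ts65Dn;Brwd1+/- animals all 8 values were below the euploid median (-0.14, adjusted p = 0.378).

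Gabpb2, which encodes the other GABP beta subunit, was highest in female euploid hippocampus and varied most there. Female euploid values ran from 14.03 to 48.1 CPM (median 40.9), where the lowest was replicate 2, a library low in Prox1 and Zbtb20, and the others began at 27.7. Female Ts65Dn values ran from 22.2 to 32.7 CPM (median 25.2), all below the euploid median, and the log2 fold change of -0.54 (SE 0.18) did not pass (adjusted p = 0.124). Without both libraries low in Prox1 and Zbtb20, an alternative added after seeing the data, Gabpb2 was called lower at -0.66 (adjusted p = 0.00180). It also passed without Ts65Dn replicate 5 (-0.60, adjusted p = 0.0859), without euploid replicate 4 (-0.59, adjusted p = 0.0889), without euploid replicate 2 (-0.66, adjusted p = 0.00765) and in DESeq2 (-0.54, adjusted p = 0.0664). Euploid replicate 2 held the lowest euploid Gabpb2 value, so leaving it out could only raise the euploid mean. The fits without this library, here and below, are therefore no independent test of the difference. Zbtb20 and Prox1 differed by -0.53 and -0.19 in the same comparison (adjusted p = 0.568 and 0.826).

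Female Ts65Dn;Brwd1+/- animals had Gabpb2 at 15.95 to 31.4 CPM (median 25.7), a log2 difference from euploid of -0.57 (adjusted p = 0.220). This was -0.69 without euploid replicate 2 (adjusted p = 0.00704) and -0.62 without both libraries (adjusted p = 0.00833). In males Gabpb2 ran from 23.7 to 38.7 CPM in euploid and from 19.96 to 40.9 in Ts65Dn animals, with medians of 26.2 and 25.5. The difference between the sexes in the Ts65Dn effect on Gabpb2 was -0.54 on the log2 scale (unadjusted p = 0.0252, adjusted p = 0.376). In that interaction 0 of 17427 genes (0%) passed, with 1935 (11.1%) at an unadjusted p under 0.05. Without both libraries low in Prox1 and Zbtb20 the Gabpb2 interaction was -0.67 (adjusted p = 0.0921), and without all 8 libraries named above it was not called.

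Across the 47 adult libraries, as deviations from group means, Gabpb2 followed the mean of Prox1 and Zbtb20. Pearson's r was 0.84 and Spearman's rho 0.74 (both with a permutation p of 1e-05, the smallest that the permutations can give, and an adjusted p of 4e-05 over 8 relations). The r was 0.72 without the 2 libraries farthest from the median, 0.67 in males and 0.91 in females. Elk1 gave r = 0.66 and rho = 0.66 (permutation adjusted p = 4e-05), 0.63 without the 2 farthest, 0.60 in males and 0.70 in females. Gabpa gave r = 0.40 (rho 0.33, permutation adjusted p = 0.0210), which fell to 0.14 without the 2 farthest libraries and so rests on them. The other 5 members had adjusted p of 0.519 or more for r, although leaving out the 2 farthest libraries moved r from -0.14 to -0.38 for Erg, from 0.16 to 0.34 for Gabpb1 and from 0.08 to -0.30 for Ets1. These relations were chosen after seeing the data, and their part in the genotype differences of Gabpb2 and Elk1 was not tested.

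Ets1 and Fli1, the 2-copy neighbours on chromosome 9, were not called by edgeR in any genotype comparison. Ets1 ran from 27.2 to 32.5 CPM in euploid and from 23.2 to 32.2 in Ts65Dn embryos (-0.14, adjusted p = 0.447), with 5 of 7 Ts65Dn embryos below the lowest euploid embryo. In adults its group medians lay between 13.4 and 15.8 CPM. Fli1 had medians of 4.79 CPM in euploid and 5.23 in Ts65Dn embryos (0.13, adjusted p = 0.639) and of 2.45 to 3.15 in adults. The largest adult difference of Fli1 was in male Ts65Dn;Brwd1+/- against euploid animals (-0.28, adjusted p = 0.388), where all 8 values were below the euploid median.

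Erg followed the endothelial markers across libraries in adults, and in embryos over all libraries but not within both title numbers. Against the mean log2 CPM of 16 endothelial genes, as deviations from group means, r was 0.77 (rho 0.86, permutation p = 0.00065, adjusted over 8 relations p = 0.00173) in the 15 embryos and 0.81 without the 2 farthest. As deviations from the group means within each title number, added after seeing the data, r was 0.58 (rho 0.45, permutation p = 0.0244 and 0.0911) and 0.46 without the 2 farthest. In the 8 embryos of the lower number r was 0.69 (rho 0.24, permutation p = 0.0552 and 0.583) and fell to -0.20 without the 2 farthest, on which it rests, and in the 7 of the higher it was 0.35 (rho 0.54, permutation p = 0.453 and 0.236). In the 47 adults r was 0.57 (rho 0.60, permutation p = 5e-05, adjusted p = 0.0004), 0.59 without the 2 farthest, 0.67 in males and 0.52 in females. Ets1 gave r = 0.49 in adults (rho 0.46, permutation adjusted p = 0.00160), 0.39 without the 2 farthest, 0.44 in males and 0.52 in females, and -0.29 in embryos (rho -0.22, permutation adjusted p = 0.401). For Fli1 and Ets2 r lay between 0.08 and 0.30 with adjusted p of 0.243 or more. Without the 2 farthest libraries r was 0.47 in embryos and 0.35 in adults for Fli1, and -0.14 and 0.13 for Ets2. The differences between these correlations were not tested.

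The endothelial markers were set beside these members. Their summed level was 286 to 443 CPM in euploid (median 345) and 326 to 479 in Ts65Dn embryos (median 387), and Cdh5, a junction protein of endothelial cells, was the 1 of 16 called higher (0.48, adjusted p = 0.0166). The median log2 fold change over the 16 was 0.19 in embryos and 0.21 in females, beside -0.01 and -0.02 over all genes, and -0.04 in males beside 0.00. The sums were 269 to 335 CPM in euploid (median 316) and 258 to 388 in Ts65Dn males (median 273), and 174 to 312 (median 249.5) and 224 to 374 (median 300) in the females. None of the 16 was at or near 0 in any group. Markers of other cell types were looked at in the same way. Of 10 choroid plexus genes all 10 had positive log2 fold changes in Ts65Dn embryos, with a median of 0.55 and 1 called (Enpp2, 0.59). Of 8 astrocyte genes 6 were positive, with a median of 0.26 and 1 called (Gja1, 0.59), and of 8 mural cell genes 6 were positive, with a median of 0.08 and 2 called (Vtn, 0.56, and Anpep, 0.61). Microglial genes had 5 of 10 positive there, with a median of 0.01. In males 1 of 10 microglial genes was called (Aif1, 0.56), with 8 positive and a median of 0.07. In females 1 of 8 astrocyte genes was called (S100b, 0.30), with 2 positive and a median of -0.04, and the choroid plexus median was -0.43 in females and -0.21 in males. The choroid plexus sum varied widely within groups, from 102 to 1503 CPM in euploid embryos. It ran from 177 to 9745 CPM in female euploid and from 188 to 8269 in male Ts65Dn animals. The part of all these markers in the differences of the members was not tested.

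Set against the endothelial markers in the same library, Erg and Ets2 were higher in Ts65Dn embryos and males. Within each title number of the embryos both were also higher, without passing. Of 12 two-sided exact permutation tests 6 passed after adjustment at 0.05. In embryos Ets2 was higher relative to the markers by 0.45 on the log2 scale (adjusted p = 0.0112) and Erg by 0.25 (adjusted p = 0.0280), with all 7 Ts65Dn embryos above the euploid median for each. With Pecam1, Cdh5 and Cldn5 alone as markers the Erg difference was 0.19 (adjusted p = 0.116). Within the higher and the lower title number, where the exact test cannot give a p under 0.0286, Ets2 was at 0.65 and 0.26 (adjusted p = 0.0857 and 0.147) and Erg at 0.16 and 0.34 (adjusted p = 0.245 and 0.0857). In males the differences were 0.46 for Ets2 (adjusted p = 0.0186) and 0.27 for Erg (adjusted p = 0.0168). In females they were 0.26 and 0.17 and did not pass (adjusted p = 0.142 and 0.197), although Erg passed without female euploid replicate 6 (0.24, adjusted p = 0.0205).

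The 2-copy relatives went the other way where they passed. Ets1 was lower relative to the markers in Ts65Dn embryos by -0.32 (exact permutation test, adjusted p = 0.0457), and Fli1 in Ts65Dn females by -0.43 (adjusted p = 0.0448), with 0 of 8 females above the euploid median. The Ets1 call was lost without any of 12 single libraries (Ts65Dn replicates 1 to 3, 5 and 7, euploid replicates 1, 2 and 4 to 8), at -0.35 to -0.23 with adjusted p from 0.0526 to 0.106. Within the higher and the lower title number Ets1 was at -0.18 and -0.46 (adjusted p = 0.300 and 0.137). The Fli1 call was lost without any of 11 (Ts65Dn replicates 1, 2, 4, 5 and 7, euploid replicates 1, 3, 4 and 6 to 8), at -0.43 to -0.34 with adjusted p from 0.05501 to 0.0702.

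**Figure D4:**
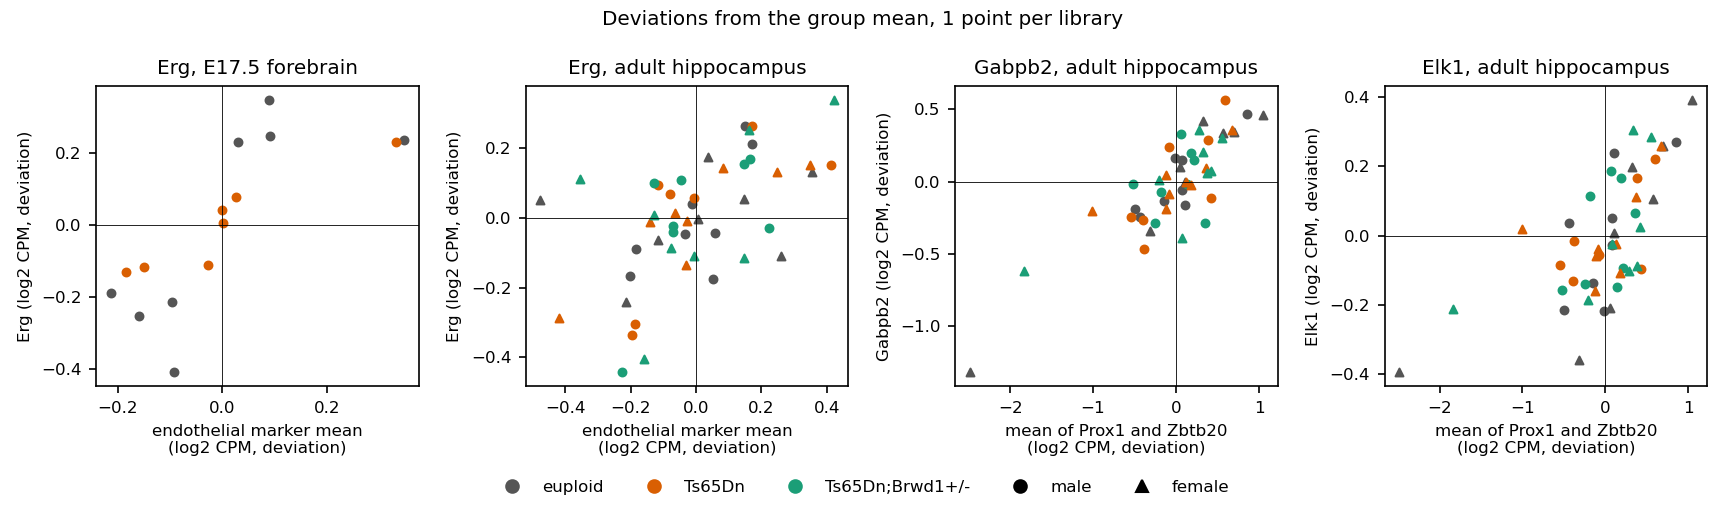
Deviations of log2 CPM from the group mean in single libraries, with members on the y axis against the mean of the endothelial markers or of Prox1 and Zbtb20 on the x axis. Erg is higher where the endothelial markers are higher (r = 0.77 in embryos, 0.58 there as deviations within title numbers, and 0.57 in adults) and Gabpb2 and Elk1 where the mean of Prox1 and Zbtb20 is higher (r = 0.84 and 0.66 in adults).

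Of 27 ETS family genes, 20 were tested in embryos and males and 21 in females. The only ones called in a genotype comparison in the main fits were Ets2, Gabpa and Erg. The median log2 fold change over the family in Ts65Dn vs. euploid was -0.02 in embryos, 0.01 in males and 0.01 in females, beside -0.01, 0.00 and -0.02 over all genes. Among 15 genes known as GABP targets, mostly subunits of cytochrome c oxidase, 1 was called higher and 0 lower in each of the 3 Ts65Dn vs. euploid comparisons. It was Tfb1m, a mitochondrial rRNA methyltransferase that itself lies in the triplicated part of chromosome 17 (0.52 in embryos, adjusted p = 0.0139, 0.52 in males, adjusted p = 0.0449, and 0.42 in females, adjusted p = 0.0369). Their median log2 fold change was within 0.01 of 0 in each of the 3. In Ts65Dn;Brwd1+/- vs. euploid Tfb1m was called in males (0.56, adjusted p = 0.0406) and 0 of 15 were called in females. The median of the 15 there was 0.07 in each sex, beside -0.003 in males and -0.007 in females over all genes. Of the 15, 12 were positive in males and 13 in females.

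Of 8 GABP partners and coactivators Gabpb1 alone was called in the main fits, in embryos. Among 12 genes of the Elk1 and serum response factor pathway, the immediate early genes Fos and Fosb were called lower in Ts65Dn females (-0.94, adjusted p = 0.0366, and -0.44, adjusted p = 0.0861). There 1.22% of all genes were called lower, and 0 of the 12 were called in the other genotype comparisons. The median of the 12 in Ts65Dn vs. euploid females was -0.23, beside -0.02 over all genes. In Ts65Dn;Brwd1+/- vs. Ts65Dn it was 0.29 in females, with 10 positive, beside 0.004 over all genes. In males it was 0.03 there, with 7 positive, beside -0.005. The 2 female comparisons share the Ts65Dn animals.

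**Figure D5:**
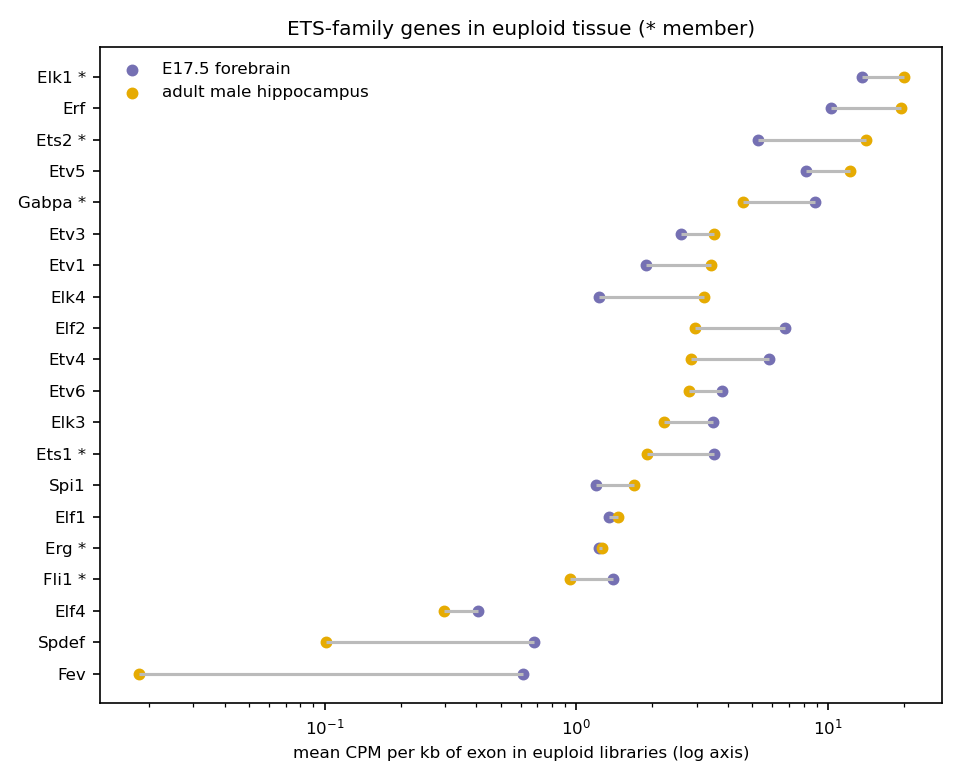
Mean CPM per kb of exon (log axis) of the ETS family genes in euploid E17.5 forebrain and euploid adult hippocampus, each scaled within its own table, so that E17.5 and adult points are not on a common scale. Elk1 and Ets2 are among the highest members in adults (19.96 and 14.1 CPM per kb in males), and Erg and Fli1 are near 1 CPM per kb.

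Levels of the members also differed between adult and embryonic samples. Euploid adult hippocampus was fitted jointly with euploid E17.5 forebrain on the counts, where age, brain region and experiment cannot be told apart, and 84.6% of 17234 genes were called (41.7% higher and 42.9% lower in adults), 8 of 8 members among them. Ets2 was higher in adults by a log2 of 1.76 (SE 0.07, adjusted p = 1.34e-18), Elk1 by 0.87 (SE 0.10) and Gabpb2 by 0.50 (SE 0.15). Gabpb1 was lower by -1.26 (SE 0.05), Ets1 by -0.69 (SE 0.07), Gabpa by -0.63 (SE 0.07) and Fli1 by -0.31 (SE 0.11). Gabpa and its beta subunit Gabpb1 were thus both lower in adults while Gabpb2 was higher. Erg was called at 0.24 (SE 0.10, adjusted p = 0.0272), and not with upper-quartile scaling (0.16, adjusted p = 0.137).

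The genes most like each triplicated member were ranked by Pearson's r of log2 CPM, as deviations from group means, over the 43 adult libraries left without the 4 of euploid-like dosage, as a description. For Ets2 these were Tef (r = 0.68), Bhlhe40 (0.68), Exog (0.67), Slc37a3 (0.65) and Htr1a (0.65). For Erg they were Sgms1 (0.71), Acer2 (0.67), Myh11 (0.63), Rbpms (0.63) and Sema3g (0.62). For Gabpa they were Pag1 (0.83), Rock1 (0.80), C2cd3 (0.79), Lrch3 (0.79) and Suz12 (0.78). With all 47 libraries the closest genes were App for Ets2 (0.85), Gja5 for Erg (0.69) and Ltn1 for Gabpa (0.80), of which App and Ltn1 are triplicated.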

How the data were processed

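The authors mapped reads to mm10 and deposited raw counts, whole numbers of reads on each gene (Entrez identifiers) that were not normalized. The submitters' processing notes name HISAT2 2.1.0, featureCounts 2.0.1 and DESeq2 2.11.40.6. Of 27179 genes, 25275 were matched to RefSeq (GRCm38.p6), and exon lengths came from GENCODE. In R 4.3.3, edgeR 4.0.16 (TMM, filterByExpr with a minimum count of 10, robust quasi-likelihood test) was fitted over all genes, with the 3 genotypes of a sex together, the sexes jointly for interactions, and Benjamini-Hochberg adjustment at 0.1. Standard errors were taken from the F statistic. CPM on the log2 scale used a prior count of 0.5. On chromosome 16 the triplicated segment was taken to begin at Mrpl39, and on chromosome 17 to end with Pde10a. Exact permutation tests and correlations (100000 permutations) were two-sided and run in Python 3.11.15 with scipy 1.17.1. DESeq2 1.42.0 and RUVr factors computed from deviance residuals were alternatives, and the edgeR test was checked on simulated data.

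The members, lists and tests were chosen with earlier results of these data known. The 8 members were always named, with Atp5j, ETS family genes that were called, at most 2 called genes of any other list and 5 genes most like each triplicated member. Prox1, Zbtb20 and the libraries left out for them were chosen after seeing the data, as were the permutation tests and correlations within title numbers. Each library is labelled as an animal's sample, and embryo sex is not labelled. The replicate numbers of E17.5 euploid and Ts65Dn embryos were not found to pair them (7 pairs, r from -0.13 to 0.23, 3 over 0.1). Library totals of 14.9 to 137.1 M reads gave every member its counts, and intervals cover the spread between animals. Promoter windows for Ets1 and Fli1 were not used here.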

Additional observations from a re-analysis of the deposited data

Results flagged for a closer look

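In 64 sets of 1 member in 1 group, 6 had a highest or lowest library farther from the nearest other than Dixon's 95% limit allows, where chance gives about 1 in 20. Ets2 was lowest in female Ts65Dn;Brwd1+/- replicate 3 at 79.02 CPM (the others 115 to 132), and Erg in male Ts65Dn;Brwd1+/- replicate 2 at 3.55 CPM (the others 4.70 to 5.43). Both of these libraries lacked the trisomic dosage. Ets2 was lowest in female euploid replicate 7 at 64.9 CPM (the others 79.1 to 93.9), a library whose Xist and Ddx3y went against its labelled sex and whose Dcx was at 121.7 CPM (group median 22.01). Gabpb1 was highest in male Ts65Dn replicate 1 at 15.6 CPM (the others 12.4 to 13.5), which also lacked the trisomic dosage. Gabpb2 was lowest in female euploid replicate 2 at 14.03 CPM (the others 27.7 to 48.1), and so was Fli1 at 2.13 CPM (the others 2.85 to 3.52). This library was 1 of 2 with low Prox1 and Zbtb20.

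Without those 2 libraries, the Ts65Dn effect on Gabpb2 differed between females and males by a log2 of -0.67 (edgeR adjusted p = 0.0921). With them it was -0.54 (adjusted p = 0.376), and without all 8 libraries that stood apart it was not called.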

How the results depend on the processing

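Ets2 in embryos and females, Gabpa in embryos, males and females and Erg in females stayed called under every alternative run and with each library left out, except within a title number of the embryos. Within the embryos whose titles carry the higher of 2 numbers (4 euploid, 3 Ts65Dn) 0 members were called, with Ets2 at 0.62, Gabpa at 0.38 and Erg at 0.14, and within the lower (4 and 4) 1 was called, with Gabpa at 0.55 and Erg at 0.72. Erg relative to the segments was 0.13 within the lower number, the opposite direction, and -0.45 within the higher, and relative to the endothelial markers 2 tests in place of 6 passed with the embryos of either number. Erg in embryos was called with DESeq2 (0.42) and with RUVr factors (0.40 with 1 in edgeR, 0.41 with 3 in edgeR, 0.42 with 3 in DESeq2). The replicate numbers do not pair the embryos, and with a replicate block 2 members were called in place of 3, Gabpb1 being at -0.24 (adjusted p = 0.235), Ets2 at 0.63 and Gabpa at 0.48.

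With 3 RUVr factors 6 members were called in embryos in either tool, where edgeR and DESeq2 called 22.1% and 24.8% of all genes. In female Ts65Dn vs. euploid DESeq2 with 3 factors called 5, and in female Ts65Dn;Brwd1+/- vs. euploid both tools called 6 with 3 factors and edgeR called 1 with only the 2 groups compared. Ts65Dn;Brwd1+/- vs. Ts65Dn had 1 member called in males with 1 or 3 factors and 1 in females with 3. The interaction of sex with the Ts65Dn effect had 1 called with 1 or 3 factors and without the 2 libraries low in Prox1 and Zbtb20. In male Ts65Dn;Brwd1+/- vs. euploid 0 members were called at an adjusted p of 0.05, 3 with 3 factors in DESeq2, and 2 with 1 or 3 factors in edgeR, with DESeq2, with all 6 groups, with the 2 groups compared, and without the 4, 6 or 8 libraries that stood apart. With a library left out, the members called ranged from 1 to 2 in male Ts65Dn vs. euploid, with Ets2 between 0.40 and 0.50, from 0 to 2 in male Ts65Dn;Brwd1+/- vs. euploid, from 0 to 1 relative to the segments and from 4 to 7 relative to the endothelial markers. The cause of these changes was not tested. Over 2568 alternative fits of 80 member comparisons, 13 changed sign in some fit, all with a log2 fold change of at most 0.05 in size in the reported test, and none was called there. Depth limits Erg and Fli1 most, at 1.86 to 6.60 CPM.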
